A study of Mus musculus with 12 samples.

Results

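The genotype by drug interaction asks, gene by gene, whether the liver's response to CDDO-Im differed between mice without hepatocyte Keap1 and their controls. It was computed as the CDDO-Im minus vehicle difference in CKO livers minus the same difference in WT livers, so a negative value means a lower response in CKO livers. All 12 of the series' 12 samples enter it, in 4 groups of 3 chosen by their labels and not by any measured value. The groups were CKO CDDO-Im, CKO vehicle, WT CDDO-Im and WT vehicle. CKO mice were Albumin-Cre:Keap1(flox/-) and WT mice were the genetic controls, Alb-Cre:Keap1(flox/+). Both genotypes therefore carried the albumin-driven Cre, which acts in hepatocytes, and by genotype the controls' hepatocytes kept a single intact Keap1 allele. The null allele of CKO mice was also present in the other cells of the liver, where the second allele was not recombined. All were male C57BL/6J mice of 9 weeks. They received 30 umol/kg CDDO-Im by gavage, or the vehicle of 10% DMSO, 10% Cremophor-EL and 80% PBS, and livers were taken 6 h later. RNA of each liver was read on 1 Affymetrix array, and values are log2 signals after GCRMA, a background-correcting normalization of the probe intensities.

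Keap1 is the cysteine-rich adaptor that holds the transcription factor Nrf2 (Nfe2l2) on a Cul3 ubiquitin ligase, which keeps Nrf2 short-lived. CDDO-Im is a synthetic oleanane triterpenoid whose electrophilic groups react with Keap1 cysteines, after which Nrf2 accumulates, pairs with small Maf proteins and binds antioxidant response elements. Genes under such elements encode enzymes of glutathione synthesis, quinone and carbonyl reduction, thiol repair, NADPH supply and glucuronidation, which are prominent in hepatocytes.

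Of 8338 genes tested, 23 had a CDDO-Im response that differed between CKO and WT livers (limma, adjusted p below 0.05), which is 0.276% of the genes tested. The interaction was lower in CKO livers for 21 genes (0.252%) and higher for 2 (0.024%). The 21 rose with CDDO-Im in WT livers and included redox and conjugation genes such as Nqo1, Srxn1, Gclc, Gsta2 and Txnrd1, together with the metallothioneins Mt1 and Mt2. The 2 were Pnpla3 and Tsc22d1, which CDDO-Im lowered in WT livers. All 23 passed the test for the drug in WT livers, where 304 genes did (3.65%), and none passed it in CKO livers, where 0 of 8338 genes did (0%). In CKO livers 790 genes had an unadjusted limma p below 0.05 for the drug, and the lowest adjusted p was 0.225. For the interaction 858 genes had an unadjusted p below 0.05. The classes by response and the interaction rest on the same arrays, so they are not separate evidence.

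Keap1 itself checked the labels. Its brightest probe set had 6.28, 6.29 and 6.45 in CKO CDDO-Im livers, against 6.51, 6.51 and 6.15 in CKO vehicle livers. In WT livers it had 7.89, 8.08 and 7.76 after CDDO-Im, against 7.15, 7.48 and 6.58 after vehicle. Every CKO liver was thus below every WT liver, and the interaction of Keap1 did not pass (-0.89 ± 0.28, SE, limma adjusted p = 0.313). A second Keap1 probe set lay at 2.74 to 3.31 over the CKO livers, against 7.92 to 8.89 over the WT livers. The labels do not place either probe set relative to the deleted part. Nfe2l2, which encodes Nrf2, had an interaction of 0.27 (limma adjusted p = 0.684).

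**Figure D1:**
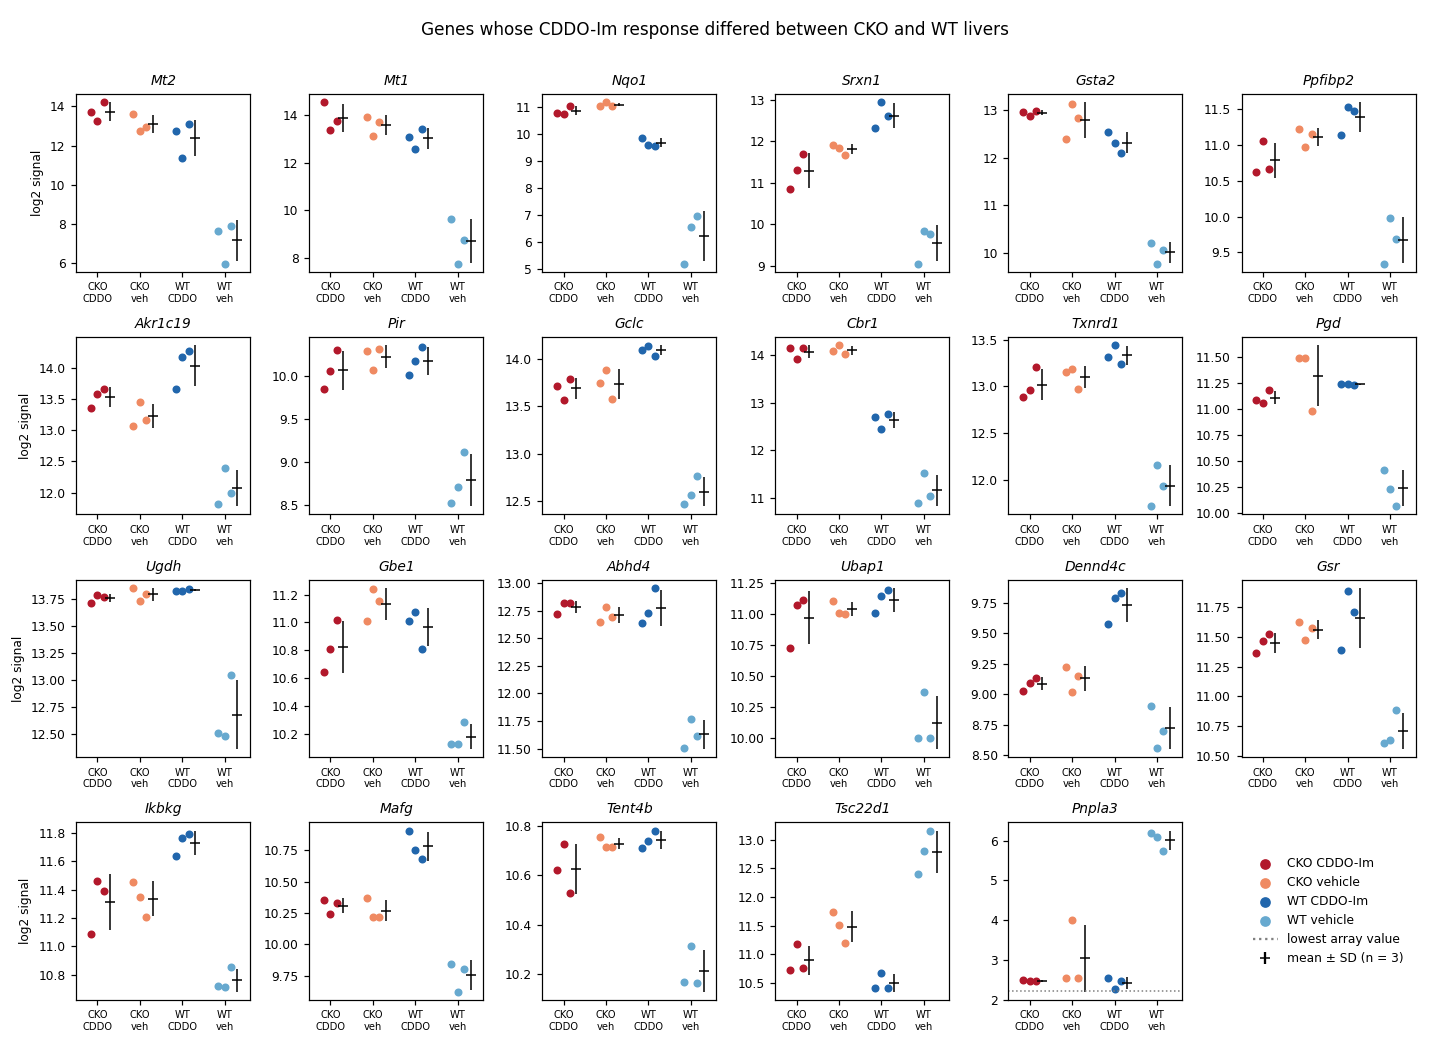
Log2 signal of the 23 genes called for the interaction, 1 panel per gene, with a point for each liver and the mean ± SD (n = 3) beside each group; vertical axes differ between panels. In the first 21 panels the WT vehicle livers lie below the other 3 groups, while for Tsc22d1 and Pnpla3 they lie above them.

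Srxn1, the sulfiredoxin that restores over-oxidised peroxiredoxins, and Gclc, the catalytic chain of glutamate-cysteine ligase, had the lowest adjusted p. Srxn1 had log2 signals of 10.86, 11.32 and 11.70 in CKO CDDO-Im livers, against 11.91, 11.84 and 11.68 in CKO vehicle livers. In WT livers Srxn1 had 12.32, 12.94 and 12.61 after CDDO-Im, against 9.05, 9.84 and 9.76 after vehicle. The CKO groups overlapped, whereas the WT groups lay far apart. The Srxn1 response was -0.52 in CKO livers and 3.07 in WT livers, giving an interaction of -3.59 ± 0.36 (SE, limma adjusted p = 0.0052). Gclc had 13.72, 13.57 and 13.79 in CKO CDDO-Im livers, against 13.75, 13.89 and 13.57 in CKO vehicle livers. Gclc in WT livers had 14.10, 14.14 and 14.04 after CDDO-Im, against 12.46, 12.56 and 12.76 after vehicle. Again the CKO groups overlapped and the WT groups did not. The interaction of Gclc was -1.54 ± 0.15 (SE, limma adjusted p = 0.0052), and its 95% interval for the CKO response ran from -0.28 to 0.19 around -0.05.

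The modifier subunit Gclm did not pass. Gclm had 13.09, 12.78 and 12.94 in CKO CDDO-Im livers, against 12.71, 12.68 and 12.61 in CKO vehicle livers. Gclm in WT livers had 13.51, 13.79 and 13.45 after CDDO-Im, against 12.42, 12.47 and 12.66 after vehicle. Unlike Gclc, the subunit's CKO groups did not overlap, though its CKO response of 0.27 did not pass (limma adjusted p = 0.515). The Gclm response was 1.07 in WT livers, for an interaction of -0.80 ± 0.16 (SE, limma adjusted p = 0.0885). Gsr, the reductase that regenerates glutathione, rose in WT livers by 0.95 with a CKO response of -0.11 (interaction -1.06, limma adjusted p = 0.0492). Gsta2, an alpha-class glutathione transferase, rose 4.94-fold in WT livers, with a log2 response of 0.16 in CKO livers. Its values were 12.96, 12.88 and 12.99 in CKO CDDO-Im livers, against 12.39, 13.14 and 12.83 in CKO vehicle livers. In WT livers Gsta2 had 12.53, 12.31 and 12.10 after CDDO-Im, against 10.20, 9.77 and 10.05 after vehicle. The WT groups lay well apart, while the CKO vehicle values enclosed those of the CKO CDDO-Im livers. The Gsta2 interaction was -2.15 ± 0.26 (SE, limma adjusted p = 0.0138). Over the 24 tested genes of glutathione synthesis and transfer, 3 had a lower response in CKO livers, 0 a higher one and 21 did not pass. Their median response was 0.00 in CKO livers and 0.43 in WT livers, and the median interaction was -0.35, beside 0.005 over all genes tested.

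Quinone, carbonyl and peroxide reduction gave the most interaction genes of any list, 5 of 28 tested, all lower in CKO livers. Nqo1, the quinone reductase long used as a read-out of Nrf2, had 10.78, 10.74 and 11.05 in CKO CDDO-Im livers, against 11.04, 11.16 and 11.05 in CKO vehicle livers. In WT livers Nqo1 had 9.86, 9.59 and 9.56 after CDDO-Im, against 5.18, 6.53 and 6.96 after vehicle. The drug thus raised Nqo1 by 10.9-fold in WT livers, to a level below every CKO liver, and the interaction was -3.68 ± 0.49 (SE, limma adjusted p = 0.0187). Cbr1, a carbonyl reductase, had 14.15, 13.92 and 14.14 in CKO CDDO-Im livers, against 14.08, 14.20 and 14.02 in CKO vehicle livers. Cbr1 in WT livers had 12.70, 12.44 and 12.77 after CDDO-Im, against 10.89, 11.53 and 11.05 after vehicle. Cbr1 was the single gene of the 21 still called higher in CKO livers when both genotypes had received the drug, by 1.44 (limma adjusted p = 0.00253). Txnrd1, thioredoxin reductase, had 12.89, 12.96 and 13.21 in CKO CDDO-Im livers, against 13.16, 13.18 and 12.97 in CKO vehicle livers. In WT livers Txnrd1 had 13.31, 13.44 and 13.24 after CDDO-Im, against 11.71, 12.16 and 11.93 after vehicle. For Txnrd1 the WT vehicle livers stood below all other livers. Its interaction was -1.48 ± 0.18 (SE, limma adjusted p = 0.0138). The remaining called member of the list, Akr1c19 of the aldo-keto reductase family, had an interaction of -1.66 (limma adjusted p = 0.0424).

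In the supporting pathways single genes passed. Pgd, which makes NADPH in the pentose phosphate pathway, had an interaction of -1.22 and was 1 of 13 NADPH genes to pass. Ugdh, which supplies UDP-glucuronic acid, had an interaction of -1.19 and was 1 of 18 glucuronidation and efflux genes. Mafg, a small Maf partner of Nrf2, was 1 of 13 genes of the Keap1-Nrf2 list. Mafg had 10.35, 10.24 and 10.33 in CKO CDDO-Im livers, against 10.37, 10.22 and 10.22 in CKO vehicle livers. Its values in WT livers were 10.91, 10.75 and 10.68 after CDDO-Im, against 9.84, 9.62 and 9.80 after vehicle. Mafg was thus nearly level over the CKO livers, while its WT groups were separated, and the interaction was -0.98 ± 0.12 (SE, limma adjusted p = 0.0153). The heme list, with 17 tested, had no called member. Its smallest p was that of Blvrb, biliverdin reductase B (-0.87, limma adjusted p = 0.0696), and Hmox1, which opens the heme ring, had -1.79 ± 0.40 (SE, limma adjusted p = 0.136). Pir, a nuclear iron-binding protein, had -1.55, Gbe1, the glycogen branching enzyme, -1.10, and Ikbkg, the regulatory subunit of the IKK complex, -0.99. Abhd4, a lipase of N-acyl phospholipids, had -1.07, and Tent4b, a noncanonical poly(A) polymerase, -0.63, the smallest interaction called. Ppfibp2, a liprin-beta scaffold protein, had -2.05, Ubap1, a subunit of the ESCRT-I sorting complex, -1.06, and Dennd4c, a Rab exchange factor, -1.06.

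The largest called interactions belonged to the metallothioneins, small cysteine-rich proteins that bind zinc and copper. Mt2 had 13.71, 13.23 and 14.19 in CKO CDDO-Im livers, against 13.62, 12.76 and 12.93 in CKO vehicle livers. In WT livers Mt2 had 12.73, 11.37 and 13.09 after CDDO-Im, against 7.63, 5.99 and 7.88 after vehicle. Mt1 had 14.53, 13.37 and 13.75 in CKO CDDO-Im livers, against 13.93, 13.12 and 13.72 in CKO vehicle livers. Mt1 in WT livers had 13.08, 12.56 and 13.44 after CDDO-Im, against 9.62, 7.75 and 8.75 after vehicle. The drug raised Mt2 by 37.6-fold and Mt1 by 20.0-fold in WT livers, while both genes' CKO groups overlapped. The interactions were -4.62 ± 0.78 for Mt2 (limma adjusted p = 0.0492) and -4.03 ± 0.65 for Mt1 (limma adjusted p = 0.0411; SE for both). Of 13 tested metallothionein and zinc transporter genes these were the only ones called, and the list's median interaction was 0.27, opposite in sign to both. The 2 symbols are close paralogs, and probes may read both.

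**Figure D2:**
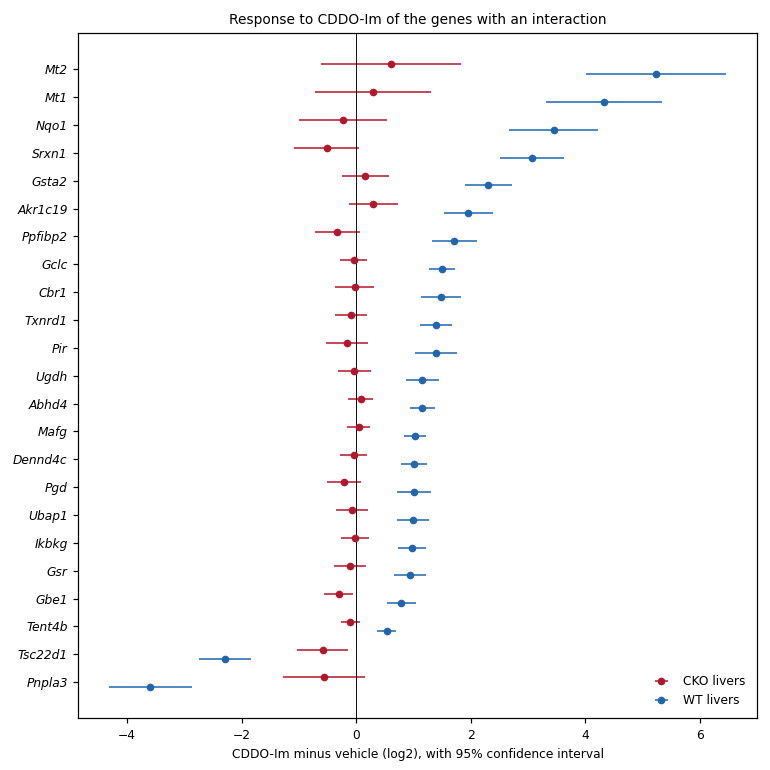
CDDO-Im minus vehicle (log2) with its 95% confidence interval from limma for each of the 23 genes, in CKO livers (upper mark) and WT livers (lower mark). The intervals of the CKO response end short of the WT estimate for every gene, and those of Gbe1 and Tsc22d1 lie wholly below 0. The genes were chosen on these same arrays for a difference between the responses. Neither Gbe1 nor Tsc22d1 passed for the drug in CKO livers after adjustment.

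Over the 21 genes with a lower interaction, the response ranged from -0.52 to 0.61 in CKO livers, with a median of -0.05, against 0.53 to 5.23 in WT livers, with a median of 1.39. The CKO response was below 0 for 15 of the 21, beside 56.2% of all genes tested. For 23 of the 23 genes the 95% interval of the CKO response excluded 0.5 times the WT response. On the linear scale the difference between responses had the same sign for 23 of 23. The 23 were chosen on these same arrays for a difference between the 2 responses, so neither count is separate evidence. CKO and WT vehicle livers also differed for these genes, by 0.41 to 5.94, with CKO higher (limma called 3.25% of all genes higher and 3.26% lower in CKO livers under vehicle). That comparison uses the same WT vehicle livers as the interaction, so the 2 are not independent. In WT CDDO-Im livers the mean lay above that of CKO vehicle livers for 13 of the 21 and below it for 8. With both genotypes on CDDO-Im, where 1.54% of all genes were called (0.744% higher and 0.792% lower in CKO livers), 17 of the 21 did not pass, Cbr1 was higher in CKO livers, and Srxn1 (-1.33), Dennd4c (-0.65) and Mafg (-0.47) were lower in CKO livers (limma adjusted p of 0.0341, 0.0183 and 0.0320).

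Promoter windows of the called genes were searched because Nrf2 binds antioxidant response elements. Whether Nrf2 acts through these windows was not tested. RefSeq windows of 250 bases before the start (GRCm38.p6) were matched for 21 of the 23 genes. They were searched on both strands for TGACNNNGC or TGAGNNNGC, a form chosen after the windows had been read. A gene with several annotated starts has several windows and was counted if any of them matched. By that count 11 of the 21 genes (52.4%) held a match, beside 30.1% of the 6856 tested genes with a window. Tsc22d1, which fell in WT livers, was 1 of the 11. The narrower TGACTCAGC or TGAGTCAGC, a subset of the wider form, was found for 4 genes (19.0%), Srxn1, Mt2, Pir and Ikbkg, beside 0.948% of tested genes. The 3 windows printed come from those 4 genes. No match to the wider form was held by Nqo1, Gsta2, Cbr1, Akr1c19, Mt1, Pgd, Gbe1, Ubap1, Dennd4c or Pnpla3. Only 250 bases before each start were searched, so this does not show that these genes lack such an element elsewhere. Gclc and Gsr had no window. A metal-response form, TGCACNC or TGCGCNC, was found for 9 of the 21 genes (42.9%), beside 34.2% of tested genes. It matched 3 times in the Mt2 window. A match is a run of letters and not evidence of binding. The 3 windows printed are on the plus strand, Srxn1 at chr2:152105274-152105523, Mt2 at chr8:94172368-94172617 and Pir at chrX:164269181-164269430, and capitals mark each match to the wider form on either strand.
Srxn1: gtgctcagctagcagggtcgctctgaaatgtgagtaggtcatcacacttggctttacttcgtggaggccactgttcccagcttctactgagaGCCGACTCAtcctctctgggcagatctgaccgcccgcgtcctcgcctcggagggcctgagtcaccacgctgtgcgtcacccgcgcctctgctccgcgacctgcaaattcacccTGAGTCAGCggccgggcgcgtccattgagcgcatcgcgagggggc
Mt2: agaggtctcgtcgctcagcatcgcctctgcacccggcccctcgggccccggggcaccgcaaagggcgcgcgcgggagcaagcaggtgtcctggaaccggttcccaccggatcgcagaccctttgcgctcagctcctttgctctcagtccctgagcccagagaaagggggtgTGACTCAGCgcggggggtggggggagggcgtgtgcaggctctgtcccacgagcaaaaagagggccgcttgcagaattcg
Pir: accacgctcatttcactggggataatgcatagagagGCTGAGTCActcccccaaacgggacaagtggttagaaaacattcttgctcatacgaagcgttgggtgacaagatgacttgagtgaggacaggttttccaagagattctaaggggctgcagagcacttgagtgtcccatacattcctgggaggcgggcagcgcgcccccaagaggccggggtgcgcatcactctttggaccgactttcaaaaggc
The Srxn1 window held 2 matches to the wider form, which began 158 and 45 bases before the start. The others held 1 each, at 79 bases for Mt2 and 214 for Pir.

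Tsc22d1 and Pnpla3 moved the other way. Tsc22d1, a leucine zipper protein induced by TGF-beta, had 10.73, 11.19 and 10.77 in CKO CDDO-Im livers, against 11.74, 11.51 and 11.20 in CKO vehicle livers. In WT livers Tsc22d1 had 10.41, 10.68 and 10.42 after CDDO-Im, against 12.41, 12.80 and 13.15 after vehicle. Neither genotype's groups overlapped, and the CKO livers were also lower after CDDO-Im. The CKO response of Tsc22d1 did not pass, however (limma adjusted p = 0.467). Its response was -0.59 in CKO livers, with a 95% interval of -1.04 to -0.14, and -2.29 in WT livers, for an interaction of 1.70 ± 0.29 (SE, limma adjusted p = 0.0492). Pnpla3, a lipid droplet protein of the patatin-like phospholipase family and a target of the lipogenic factor SREBP-1c, had 2.49, 2.46 and 2.46 in CKO CDDO-Im livers, against 2.55, 4.01 and 2.55 in CKO vehicle livers. Pnpla3 in WT livers had 2.55, 2.26 and 2.46 after CDDO-Im, against 6.20, 6.11 and 5.74 after vehicle. Its interaction was 3.02 ± 0.46 (SE, limma adjusted p = 0.0332), with a response of -0.57 in CKO livers and -3.59 in WT livers. Pnpla3 exceeded 5 only in the 3 WT vehicle livers, so it met the filter of at least 3 arrays over 5 through that group alone. The same group sets its interaction, so its call is not independent of the filter. Without the filter Pnpla3 did not pass (limma adjusted p = 0.177).

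Pnpla3 was the one called gene near the value floor, taken as a lowest group mean under 5. The lowest value on every array was 2.22, shared by 16494 to 16776 probe sets on each. The CKO vehicle mean of Pnpla3 stood 0.82 above that value, whereas the WT vehicle mean stood 3.80 above it. A fall of the WT size could therefore not have been recorded in CKO livers, and on this gene a lost response and a level already at the floor cannot be told apart. With all values under 5 set to 5 the Pnpla3 interaction was 1.01 (limma adjusted p = 0.0243). With a pseudocount of 32 on the linear signal it was 1.25 (limma adjusted p = 0.0077). The sign was the same and the size smaller under both. Leaving out CKO vehicle replicate 4, whose Pnpla3 value stood apart at 4.01, gave 3.51 (limma adjusted p = 7.2e-05). Of the 11 other fits with an array left out, the one without WT vehicle replicate 3 called it (limma adjusted p = 0.0353). Tsc22d1, far above the floor, had 1.70 and 1.68 under the same settings.

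Genes near the floor were 329 of the 8338 tested (3.95%) and 1 of the 23 called (4.35%). Their median SE of the interaction was 0.34, against 0.18 for the other genes. Among 28 genes with an interaction of at least 2 in either direction, 7 lay near the floor, of which 1 was called, and 21 lay above it, of which 6 were called. The largest of all was that of Cbr3, a second carbonyl reductase, named here after its values were seen. Cbr3 had 14.11, 13.99 and 14.60 in CKO CDDO-Im livers, against 14.56, 14.99 and 14.08 in CKO vehicle livers. In WT livers Cbr3 had 10.24, 10.05 and 10.62 after CDDO-Im, against 3.14, 7.16 and 3.01 after vehicle. Both genotypes' pattern resembled that of Nqo1, but WT vehicle replicate 2 stood far above the other two. The interaction of -6.18 ± 1.25 did not pass (SE, limma adjusted p = 0.0885). Without that replicate it was -7.54 (limma adjusted p = 4.6e-05), and with values under 5 set to 5 it was -4.90 (limma adjusted p = 0.0243). The 21 genes with a lower interaction all had group means of at least 6.22, so none of them lay near the floor.

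**Figure D3:**
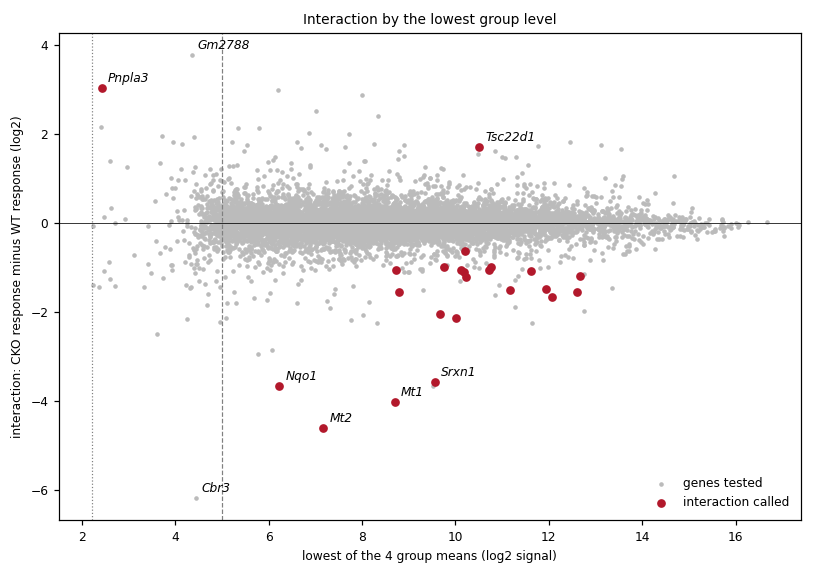
Interaction (log2) of each tested gene against the lowest of its 4 group means (log2 signal), with called genes as larger points; the dotted line is the lowest array value, 2.22, and the dashed line marks 5. Pnpla3 is the only called point left of the dashed line, and Cbr3 lies lowest of all without being called.

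The genes called in WT livers were then read in the CKO livers. The 2 responses are differences of means from separate arrays. The WT calls were not made on the WT arrays alone, since limma took the spread of each gene from all groups together, CKO livers included. These genes were called for their WT responses, so selection tends to enlarge the WT responses, unlike the CKO responses. This limits the comparison of medians and the counts at 0.5 times the WT response. The 157 genes that rose in WT livers (1.88% of those tested) had a median response of 0.07 in CKO livers, against 0.84 in WT livers. In CKO livers 98 of them (62.4%) had a positive response, beside 43.5% of all genes. The 147 genes that fell in WT livers (1.76%) had a median of -0.19 in CKO livers, against -0.65 in WT livers, and 122 of them (83.0%) were below 0 in CKO livers, beside 56.2% of all genes. Among the 157, 30 had an unadjusted limma p below 0.05 in the same direction in CKO livers and 2 in the opposite one. Among the 147 the counts were 47 and 0. Over all 8338 genes 790 (9.47%) had such a p in CKO livers, in either direction. Genes called in WT livers tend to have a small shared spread, which also lowers their CKO p, so these counts are not an independent reading. Across all genes the 2 responses had a Pearson r of 0.293, a description over genes, which are not independent replicates. The CKO response was at least 0.5 times the WT one for 23 of the genes that rose and 33 of those that fell. The matching share over all genes was not computed.

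**Figure D4:**
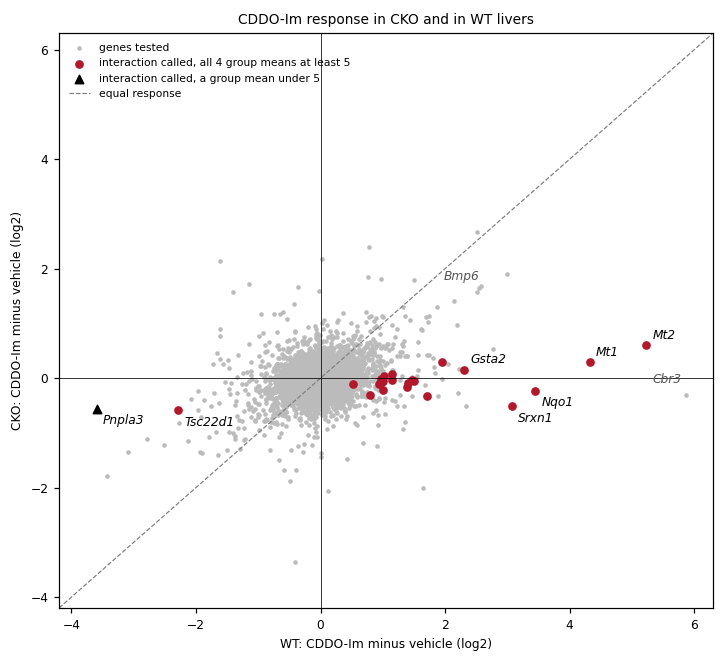
CDDO-Im minus vehicle (log2) in CKO livers (vertical) against WT livers (horizontal) for the 8338 genes tested, with the genes called for the interaction as larger marks and equal responses on the dashed line. The called genes spread along the WT axis near a CKO response of 0, whereas Bmp6 lies nearer the dashed line.

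From the genes with a CKO response of at least 0.5 times the WT one, 3 expressed in liver endothelium are named here. They were picked after their values were seen, may not be all such genes, and were not tested as a theme. Bmp6, an iron-regulating ligand made mainly by sinusoidal endothelial cells, had 8.06, 8.27 and 8.78 in CKO CDDO-Im livers, against 7.12, 6.96 and 6.33 in CKO vehicle livers. In WT livers Bmp6 had 8.63, 8.51 and 8.50 after CDDO-Im, against 5.64, 6.51 and 5.96 after vehicle. The groups of neither genotype overlapped. The Bmp6 response was 1.57 in CKO livers (limma adjusted p = 0.225) and 2.51 in WT livers (limma adjusted p = 0.000934), and the interaction of -0.94 had a 95% interval of -1.76 to -0.12 (limma adjusted p = 0.433). Bmp2, the related ligand, had responses of 0.61 in CKO livers and 0.75 in WT livers, and its interaction of -0.14 had an interval of -0.45 to 0.18. Lyve1, a hyaluronan receptor of sinusoidal endothelium, had responses of 1.69 in CKO livers and 2.57 in WT livers, with an interaction of -0.89 and an interval of -2.32 to 0.55. Lyve1 and Bmp2 are not typical of the endothelial marker list, which does not hold Bmp6. Over its 15 tested genes the median response was -0.03 in CKO livers and -0.13 in WT livers. In WT livers 2 of them rose, Lyve1 and Bmp2, beside 1.88% of all genes tested, and 0 passed for the interaction. Ampd3, an AMP deaminase, had 1.41 in CKO livers and 2.14 in WT livers, and Akr1b8, an aldose reductase relative, 1.65 and 2.55 in the same order. None of these 5 passed in CKO livers after adjustment, and a p above the threshold for the interaction does not show that the responses were equal. Ampd3 lay near the floor, with vehicle means of 3.66 in CKO livers and 3.11 in WT livers. It exceeded 5 only in CDDO-Im livers and so met the filter through them alone, so its rise is not independent of the filter.

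De novo lipogenesis was the one list with a gene called higher for the interaction, Pnpla3. Of its 26 tested genes 10 fell in WT livers, beside 1.76% of all genes tested. Under vehicle 8 of the 26 were already called lower in CKO than in WT livers, beside 3.26% of all genes. The median response was -0.16 in CKO livers and -0.51 in WT livers, and 25 did not pass for the interaction. Fasn, fatty acid synthase, had 11.43, 11.66 and 11.56 in CKO CDDO-Im livers, against 13.10, 13.26 and 11.92 in CKO vehicle livers. In WT livers Fasn had 12.47, 11.57 and 11.41 after CDDO-Im, against 14.43, 14.18 and 14.37 after vehicle. The CKO vehicle livers lay between both CDDO-Im groups and the WT vehicle livers for this gene, apart from overlap with the highest WT CDDO-Im liver. Its interaction of 1.30 did not pass (limma adjusted p = 0.406). Cholesterol synthesis and uptake had medians of -0.12 in CKO livers and -0.51 in WT livers with 0 of 21 called, and its smallest p was that of Stard4 (0.90, limma adjusted p = 0.473).

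The interferon list had the second largest positive median, 0.42, with 0 of 20 called, led by Irf7 (1.06, limma adjusted p = 0.149). Fatty acid oxidation had a median of 0.26 with 0 of 25 called, led by Plin2 (0.85, limma adjusted p = 0.172). Heat shock chaperones (17 tested), unfolded protein and amino acid stress (22), acute phase (27), cytochrome P450 (24), bile acid (21), gluconeogenesis (18), clock (15), immediate early (13), p53 (12), proteasome (33) and sex-biased genes (18) had 0 called each. Their median interactions ran from -0.30 for the p53 list to 0.15 for the sex-biased list. Among their leading members by p, Myc, an immediate early transcription factor, had -1.73 (limma adjusted p = 0.0885), Saa4, a serum amyloid, 1.81 (0.214), and Mdm2, the ubiquitin ligase of p53, -0.52 (0.288). Cyp39a1, an oxysterol hydroxylase, had responses of -0.85 in CKO livers and 0.58 in WT livers, and Irs1, an adaptor of the insulin receptor, -0.94 in CKO livers and 0.11 in WT livers. Cyp2u1, a fatty acid hydroxylase, had 0.23 in CKO livers and -0.96 in WT livers. The adjusted p of their interactions was 0.312, 0.365 and 0.345 by limma. The smallest-p members of the other lists, Hspb8 and Hsp90b1 of the chaperone and unfolded protein lists, Per1 of the clock, Psmb5 of the proteasome and Nudt7 of the sex-biased list, had interactions of -0.60, -0.47, -0.81, -0.34 and 1.01, with limma adjusted p from 0.292 to 0.574. A count of 0 in lists of 12 to 33 genes is near the 0.276% called among all genes.

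**Figure D5:**
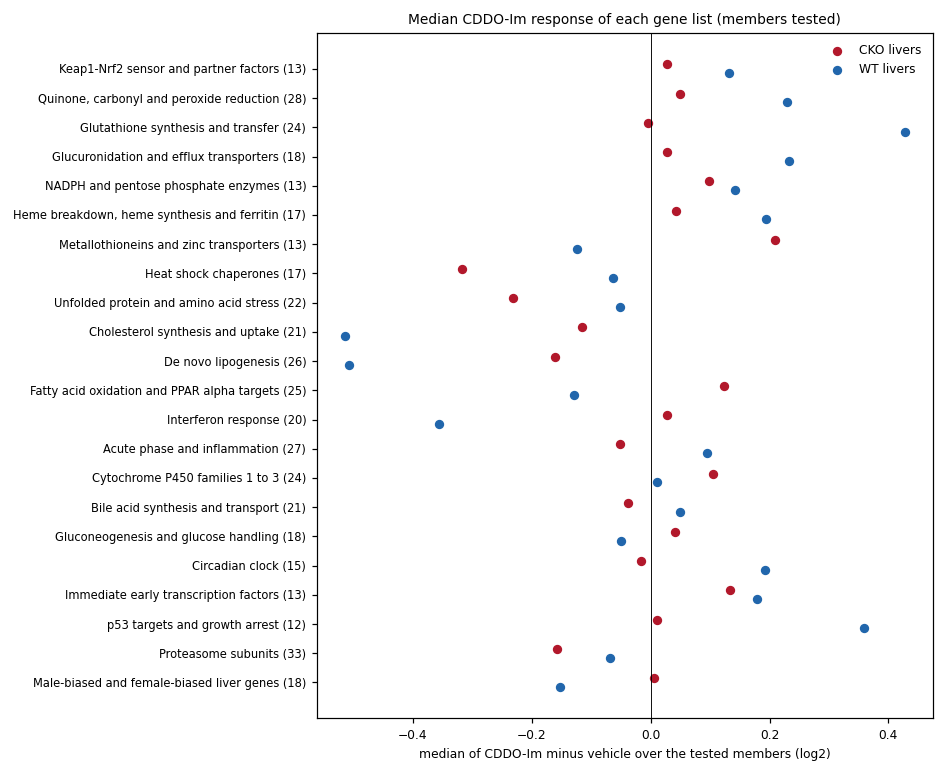
Median of CDDO-Im minus vehicle (log2) over the tested members of each of the 22 pathway lists, whose numbers of members are in brackets, in CKO livers (upper mark) and WT livers (lower mark). The glutathione list has the highest WT median, 0.43 against 0.00 in CKO livers, and the lipogenesis and cholesterol lists the lowest, near -0.51.

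Whole liver was measured, so fewer cells of a type and less RNA per cell cannot be told apart. The 17 tested hepatocyte markers were present in every liver, with a summed log2 signal of 19.37 to 19.41 in CKO CDDO-Im, 19.32 to 19.41 in CKO vehicle, 19.43 to 19.46 in WT CDDO-Im and 19.39 to 19.44 in WT vehicle livers. None of the marker lists, which also covered cholangiocytes (1 tested), macrophages (13), neutrophils (1), lymphocytes (1), stellate cells (12), endothelium (15) and erythroid cells (2), had a gene called for the interaction. The cholangiocyte gene, Epcam, lay at 7.28 to 7.39 over all livers and the lymphocyte gene, Ighm, at 7.83 to 8.02. Signals this constant could hardly give a call, so these 2 genes do not test their cell types. The member with the smallest p was Tdo2 for hepatocytes (-0.30, limma adjusted p = 0.334), Marco for macrophages (-1.31, 0.529), Rgs5 for stellate cells (-0.66, 0.390), Kdr for endothelium (0.50, 0.563) and Hbb-b2 for erythroid cells (-0.05, 0.881). Macrophage markers summed to 13.52 to 14.08 in CKO CDDO-Im, 13.47 to 14.05 in CKO vehicle, 13.56 to 13.73 in WT CDDO-Im and 13.10 to 14.04 in WT vehicle livers, and these ranges overlapped. The single tested neutrophil-linked marker, Lcn2, was at 13.35 in CKO vehicle replicate 3, against 9.45 at the lowest in that group. Saa2, an acute phase gene, was likewise highest there, at 15.90. Without that replicate 3 genes were called for the interaction, but this fall was not particular to that array, since 2 and 3 genes were called without CKO CDDO-Im replicate 2 and replicate 3.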

How the data were processed

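Total RNA of 12 livers was read on 1 array each. Per the submitters' processing notes the authors used GCRMA 2.12.1 in R 2.7.0, and the deposited values are log2 signals, whose scale was checked on the values. The GCRMA settings were not given in those notes. Of 45101 probe sets, 64 were controls, 34945 had 1 gene, 932 several and 9160 none in the platform annotation. The brightest probe set stood for each of 18193 genes, and 8338 with at least 3 arrays over 5 were tested with limma 3.58.1 (R 4.3.3), as 4 group means with contrasts and Benjamini-Hochberg adjustment over all genes tested, two-sided, called at an adjusted p below 0.05. Residual degrees of freedom were 8. The interaction test was checked on simulated data with normal noise and no value floor, and the other contrasts were not checked this way. No 2 arrays were identical and the lowest correlation between replicates was 0.996. That number of arrays limits the precision, and nothing in the labels gives a scan or batch. Replicates were separate mice.

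Genes were named by rule: the 10 most positive and most negative interactions, leading members of each list, and 10 genes always named; with fewer than 10 called in a direction, the next by p are given as not called. The members, lists and rule were chosen with earlier results of these data known. Same-numbered samples did not deviate together (12 pairs, r from -0.166 to 0.146, 3 over 0.1), so replicate numbers were not used as pairs. Alternatives covered the filter, centring, quantile normalization, floors, array weights, probe sets, a replicate block and each array left out.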

Additional observations from a re-analysis of the deposited data

Results flagged for a closer look

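The CDDO-Im response differed between CKO and WT livers by limma's test of the interaction for 23 genes. The test compares the 2 responses directly, and each value here is the CKO response minus the WT response on the log2 scale. Among metallothioneins and quinone or thiol enzymes, the values were -4.62 for Mt2, -4.03 for Mt1, -3.68 for Nqo1, -3.59 for Srxn1, -1.50 for Cbr1, -1.48 for Txnrd1 and -1.66 for Akr1c19. Glutathione genes had -2.15 for Gsta2, -1.54 for Gclc and -1.06 for Gsr. Values of the enzymes of NADPH, glucuronate and glycogen metabolism were -1.22 for Pgd, -1.19 for Ugdh and -1.10 for Gbe1. For the other genes with a lower response the values were -2.05 for Ppfibp2, -1.55 for Pir, -1.07 for Abhd4, -1.06 for Ubap1, -1.06 for Dennd4c, -0.99 for Ikbkg, -0.98 for Mafg and -0.63 for Tent4b. Tsc22d1 had 1.70 and Pnpla3, whose CKO and WT CDDO-Im livers lay near the value floor, had 3.02.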

How the results depend on the processing

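None of the 23 interactions changed sign under any alternative run, but how many passed changed with the arrays used. With each array left out in turn the number called ranged from 2 (without CKO CDDO-Im replicate 2) to 31 (without WT vehicle replicate 3). It was 3 without CKO CDDO-Im replicate 3 and 3 without CKO vehicle replicate 3, 12 without CKO CDDO-Im replicate 4, CKO vehicle replicate 4 or WT CDDO-Im replicate 2, 11 without CKO vehicle replicate 5, 10 and 8 without WT CDDO-Im replicates 3 and 4, and 14 without WT vehicle replicate 1. Those fits have fewer arrays, and the highest adjusted p of any of the 23 genes in them was 0.139. Gclc and Srxn1 were called in 12 of 12 such fits, and 14 genes in 3 or fewer. Lower interactions ranged from 2 to 24 and higher ones from 0 to 7, genes called in WT and not in CKO livers from 2 to 29, and those near the floor from 0 to 4. The drug was called for 0 to 1 genes in CKO livers and 106 to 318 in WT livers. CKO against WT was called for 275 to 537 genes under vehicle and 32 to 139 under CDDO-Im.

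Without the filter on low values 7 interactions were called (4 higher, 3 lower, 6 in WT and not in CKO livers, 2 near the floor). That fit called 1 gene for the drug in CKO livers, 124 in WT livers, and 232 between genotypes under vehicle and 29 under CDDO-Im. Its extra calls include 1700123K08Rik, with an interaction of 0.04. Array weights called 45 (7 higher, 38 lower, 42 in WT and not in CKO livers, 3 near the floor), all 23 among them, and 274 between genotypes under CDDO-Im. Testing every probe set called 42 probe sets of 30 genes (4 higher, 38 lower, 41 in WT and not in CKO livers), 526 for the drug in WT livers, and 828 and 195 between genotypes under vehicle and CDDO-Im. The replicate block, whose numbers did not pair the samples, called 3 interactions (1 higher, 2 lower, 3 in WT and not in CKO livers, 0 near the floor), namely Nqo1, Pgd and Tsc22d1. That block called 2 genes for the drug in CKO livers, Pck1 (2.54) and Zfp467 (-1.08), 114 in WT livers, and 55 and 42 between genotypes under vehicle and CDDO-Im. Higher interactions numbered 1 with all 4 group means at least 5 and 4 with a trended robust variance. Genes near the floor numbered 0 with at least 3 arrays over 7, with all means at least 5, with values under 5 set to 5 and with a pseudocount of 32. Median centring (28), quantile normalization (25), the filter at 7 (26), means of at least 5 (23), the floor at 5 (26), the pseudocount (27), repeated values left out (23) and the trended variance (29) kept the count within 1.5 times, sharing 20 to 23 of the 23 genes.

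Of the single genes named, Epcam, a cholangiocyte marker that was not called, changed sign. Its signal was nearly constant over the livers, so that change carries little meaning. The Epcam interaction was -0.058 to 7.66e-05 over the fits with an array left out, the highest without WT CDDO-Im replicate 3. The design of 3 arrays a group gave a median SE of 0.18, and the smallest interaction called was -0.63.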

Other observations

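Positive interactions next in order by p did not pass. Nsmf, a synapse-to-nucleus signalling factor, had 0.89 (limma adjusted p = 0.0544), with responses of -0.28 in CKO livers and -1.17 in WT livers. Dhx36, a helicase of G-quadruplexes, had 1.06 (0.0696), and Cmah, which makes N-glycolylneuraminic acid, 0.86 (0.0696). Carmil1, an actin regulator, had an adjusted p of 0.0885. Foxk2, a forkhead factor, had 0.57 (0.0885), and Abca1, the cholesterol efflux transporter, 0.55 (0.0885). For Scnn1a, a subunit of the epithelial sodium channel, the response was 0.64 in CKO livers and -0.23 in WT livers (interaction 0.87, 0.0745). Dhdh, a dihydrodiol dehydrogenase, had 0.68 in CKO livers and -0.27 in WT livers (interaction 0.95, 0.0745).

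Of the other negative interactions that did not pass, Samd4, an RNA-binding translational repressor, had -2.85 ± 0.49 (SE, limma adjusted p = 0.0509), and Abcc4, an efflux transporter of the sinusoidal membrane, had -1.80 (limma adjusted p = 0.115). Both were named after their values were seen.

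Other probe sets of the called genes had the same sign as the brightest one in 22 of 22 cases. They read the same genes on the same arrays, so this is not separate evidence. Several did not pass when every probe set was tested, among them the second ones of Gsr, Mafg and Mt1 (limma adjusted p of 0.0803, 0.162 and 0.365). A second Gclc probe set had an interaction of -1.51 and 2 further Srxn1 probe sets had -3.82 and -3.83, whereas another had -0.62. The second Mt1 probe set had -2.57, with a WT vehicle mean of 2.97, near the floor.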
